A study of Rattus norvegicus with 6 samples.

Results

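A set of 10 genes of the canonical Wnt pathway that act in the intestinal crypt was followed across the nuclei of rat ileum: the R-spondin receptors Lgr4 and Lgr5, the membrane ubiquitin ligases Rnf43 and Znrf3, the feedback genes Axin2 and Nkd1, and the transcription factors Tcf7l2, Ascl2, Sox9 and Myc. They were chosen by their known role, though with earlier results of these data known, and are 10 of the 28282 gene symbols in the count tables. Unique molecular identifiers (UMIs), each standing for 1 captured RNA molecule, were summed over the nuclei of a class in each library. All 10 had UMIs, from 87911 for Tcf7l2 and 73632 for Rnf43 down to 228 for Ascl2.

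Wnt ligands bind Frizzled and Lrp receptors on crypt base cells, which stops the breakdown of beta-catenin and lets it switch on target genes together with TCF factors. The ubiquitin ligases Rnf43 and Znrf3 take Frizzled receptors off the cell surface, and R-spondins bound to Lgr receptors clear those ligases, so that the Wnt signal grows. Several genes in this circuit, Axin2, Rnf43, Znrf3, Nkd1 and Lgr5 among them, are themselves Wnt targets. In the intestine the circuit is known for maintaining Lgr5-marked stem cells at the crypt base, whose progeny divide, mature and move onto the villus.

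The libraries came from the ileum of 6 wild-type male Sprague–Dawley rats, 6 weeks old, with 1 library per rat. In the SAP group (severe acute pancreatitis, 3 rats) 3% sodium taurocholate was infused backwards into the pancreatic duct. The dose was 0.1 mL per 100 g body weight at 0.1 mL/min, and the duct was clamped for 5 min afterwards. In the CON group (3 rats) the abdomen was opened in a sham operation with no infusion, and both groups had the same anaesthesia. The taurocholate and the handling of the duct therefore cannot be told apart. Rats of both groups were acclimatized for 7 days before surgery and fasted after it. All rats were killed 24 h after surgery, so 1 time point and a chemically induced form of the disease are covered, and the labels give all 6 libraries the same batch.

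After the study's filters (at least 1200 UMIs, at least 500 genes and at most 5% mitochondrial UMIs) 40970 of 90461 barcodes remained, 3189 to 9246 per library, with 5549260 to 28771508 UMIs per library. The paper reports fewer nuclei after quality control, so this set is not the same as the study's. The median mitochondrial share ran from 0.125% to 0.700% in the CON libraries and from 0.387% to 1.84% in the SAP libraries. Clusters were named only from marker genes, and 31020 nuclei lay in epithelial clusters. Crypt nuclei formed 2 Stem/TA-like clusters (stem and transit-amplifying markers together): 1 led by Olfm4 with 4254 nuclei and 1 led by mitotic genes with 6009. A cluster led by Gfra4, Kif19 and Samd5 held 1268 nuclei. Its highest marker score was that of Paneth cells (1.54, next class 0.439), which was enough for that name. It stayed unnamed only by a rule set after the clusters were seen. That rule asks for Defa24 and Lyz2 each at 2 or more times the level in other nuclei. With coarser clusters (resolution 0.4) a cluster of 1906 nuclei led by Gfra4, Kif19, Habp2 and Mmp7 was named Paneth-like, so this separation depends on the resolution. Summed Paneth markers reached 18390 CPM (UMIs scaled to the total UMIs of the class in that library) in T-like nuclei of CON replicate 1 and 27940 CPM in those of SAP replicate 1, against 1319 to 2179 CPM in the other 4 libraries. In the Gfra4-led cluster the same sum ran from 11790 to 65180 CPM in CON and from 13630 to 60710 CPM in SAP. Because droplets can hold free RNA of other cells, levels in T-like nuclei are given beside the crypt levels.

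Proximal promoters are shown for the pair of feedback genes because the Wnt circuit acts through TCF motifs. RefSeq (build GRCr8) gave windows for 6 of the 10 genes (Lgr4, Rnf43, Axin2, Nkd1, Tcf7l2 and Ascl2), each 300 bases long. The letters CTTTGAA were searched on both strands, as were CTTTGAT, then the variant CTTTGTA, and finally the variant CTTTGTT. Only the Axin2 and Nkd1 windows held a match, and 17.09% of all 33469 windows of this length did. Axin2 had CTTTGAA starting 232 bases and CTTTGAT starting 132 bases before the gene start, and Nkd1 had CTTTGAT starting 141 bases before it, all on the gene's strand. The 250 bases before each start are printed 5′ to 3′ on the gene's strand, with the matches in capitals, from chr10:94398535-94398784 (plus strand) for Axin2 and chr19:34722847-34723096 (minus strand) for Nkd1.
Axin2: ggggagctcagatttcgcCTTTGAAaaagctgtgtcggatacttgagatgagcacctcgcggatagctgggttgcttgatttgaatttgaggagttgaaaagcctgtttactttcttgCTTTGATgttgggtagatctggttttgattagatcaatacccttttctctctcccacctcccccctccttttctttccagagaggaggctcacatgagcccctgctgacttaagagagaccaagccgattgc
Nkd1: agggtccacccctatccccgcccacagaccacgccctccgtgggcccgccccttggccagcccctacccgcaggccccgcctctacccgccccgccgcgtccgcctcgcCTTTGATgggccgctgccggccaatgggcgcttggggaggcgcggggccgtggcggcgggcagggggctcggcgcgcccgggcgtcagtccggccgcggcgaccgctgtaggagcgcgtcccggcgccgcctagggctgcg
These matches describe letters only, and nothing was measured at the promoters themselves.

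Where each gene was highest differed within the circuit. Levels were compared over 21 classes and clusters as CPM, the mean ± SD of the 6 libraries, and are a description because the classes were drawn from the same nuclei. Rnf43, Znrf3, Axin2 and Myc were highest in the Olfm4-led Stem/TA-like cluster. Lgr5 and Nkd1 were highest in the unnamed Gfra4-led cluster, Sox9 in Paneth-like nuclei, Tcf7l2 in the Ly6m-led enterocyte-like cluster and Lgr4 in the unnamed Ceacam20-led epithelial cluster.

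**Figure D1:**
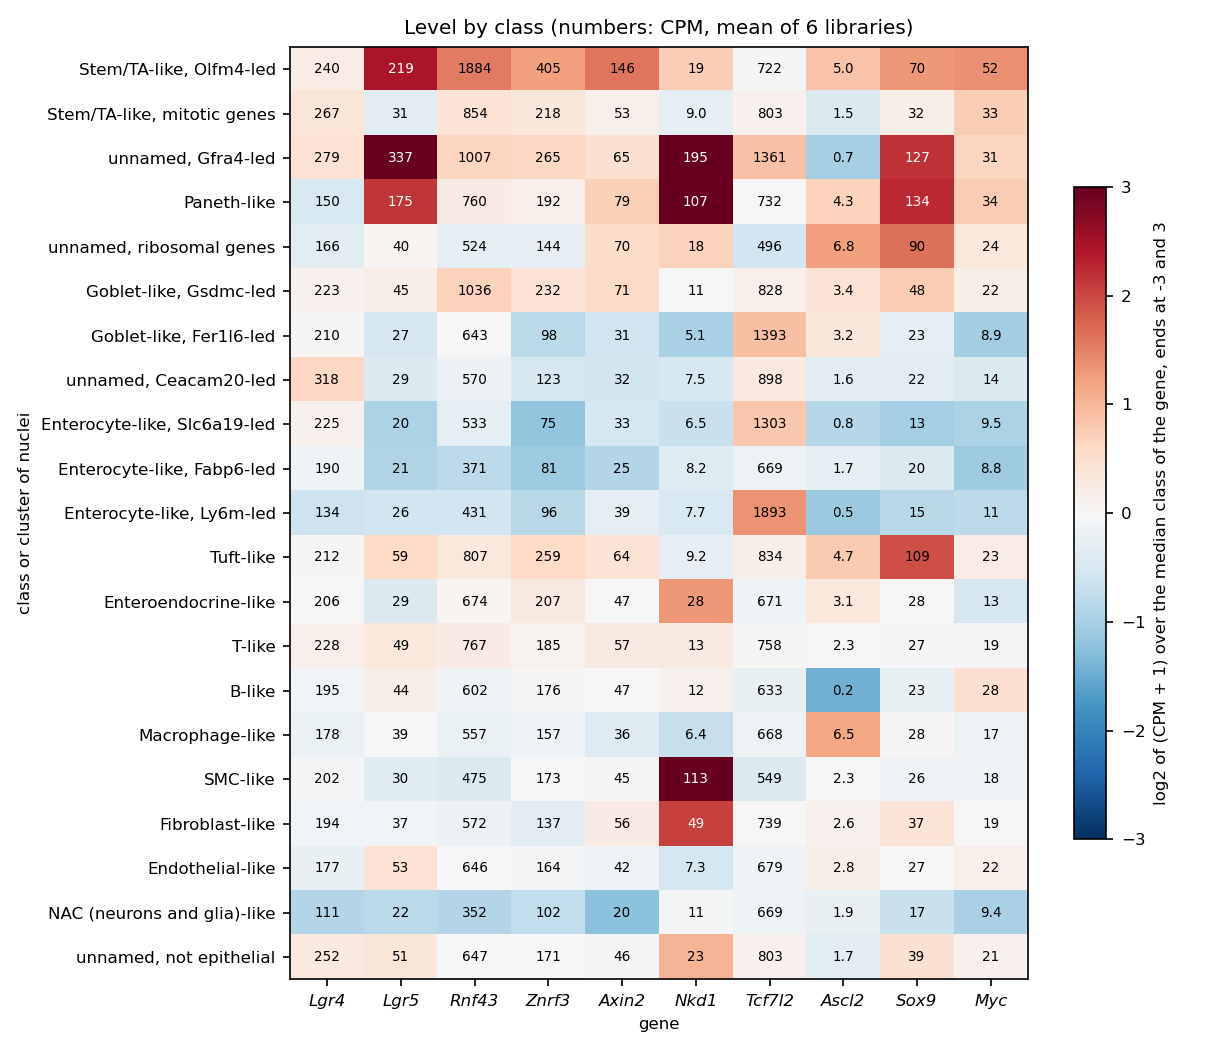
Level of the 10 genes (columns) in 21 classes and clusters of nuclei (rows). Numbers are CPM, the mean of 6 libraries, and colour is the log2 ratio of (CPM + 1) to the gene's median class. Lgr5 stood at 337 CPM in the Gfra4-led and 219 CPM in the Olfm4-led cluster, and Rnf43 at 1884 CPM in the Olfm4-led cluster.

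Lgr5, the receptor that marks crypt base stem cells, reached 337 ± 136 CPM in the Gfra4-led cluster, 219 ± 56.1 CPM in the Olfm4-led cluster and 175 ± 134 CPM in Paneth-like nuclei. The ranges of these 3 groups overlapped, so their order is not settled. Tuft-like nuclei followed at 59.2 ± 18.7 CPM, T-like nuclei, which should lack the gene, stood at 48.5 ± 13.2 CPM, and the lowest level was 19.8 CPM in the Slc6a19-led enterocyte-like cluster. Outside the first 3 groups the mean of Lgr5 did not exceed that of tuft-like nuclei, whose range overlapped the T-like one.

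Nuclei with a UMI of Lgr5 and of Olfm4, a secreted glycoprotein of crypt stem cells, were counted in each library after thinning to 1200 UMIs, as a description. In the Gfra4-led cluster 20.9% to 41.8% of nuclei had Lgr5 and 8.64% to 19.6% had Olfm4, and in the Olfm4-led cluster 13.9% to 23.1% had Lgr5 and 36.6% to 70.3% had Olfm4. In T-like nuclei, which should lack both, the ranges were 3.80% to 7.23% and 6.53% to 20.1%. The Olfm4 share of the Gfra4-led cluster was thus at background, and its Lgr5 share was above it. Nuclei with Lgr5 had Olfm4 more often than those without it in 6 of 6 libraries both in the Olfm4-led cluster and in T-like nuclei, so co-occurrence in a droplet is not read as co-expression here. Lgr5 did not enter the variable genes used for clustering, while Olfm4 is a marker that names the Stem/TA-like clusters. On average 30.2% of all Lgr5 UMIs of a library lay in the Olfm4-led cluster and 16.5% in the Gfra4-led one.

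Lgr4, the broadly expressed R-spondin receptor, varied least of the 10 between classes, by 2.86 times from the lowest to the highest mean. It was highest in the unnamed Ceacam20-led epithelial cluster at 318 ± 63.5 CPM, followed by the Gfra4-led (279 CPM) and the mitotic Stem/TA-like cluster (267 CPM), with overlapping ranges, and lowest in neuron- and glia-like nuclei at 111 CPM. Its level in T-like nuclei was 228 ± 50.3 CPM, on average 1.02 times that of the epithelium.

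Rnf43 stood out in the Olfm4-led cluster, where its 6 libraries lay between 1719 and 2134 CPM (1884 ± 168). The next group, the Gsdmc-led goblet-like cluster, had 1036 ± 125 CPM with a highest library of 1192 CPM, so these ranges did not overlap. Znrf3, its close relative, was also highest there at 405 ± 99.0 CPM, but its range overlapped that of the Gfra4-led cluster (265 ± 70.5 CPM). In T-like nuclei Rnf43 was at 767 and Znrf3 at 185 CPM, 0.990 and 1.07 times their epithelial levels.

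Axin2, a scaffold of the destruction complex that brakes the pathway, was at 146 ± 34.5 CPM in the Olfm4-led cluster, 78.5 ± 41.1 CPM in Paneth-like and 57.2 ± 22.4 CPM in T-like nuclei. Nkd1, which binds Dishevelled and also brakes the pathway, had another distribution: 195 ± 114 CPM in the Gfra4-led cluster, 113 ± 51.1 CPM in smooth-muscle-like (SMC-like), 107 ± 108 CPM in Paneth-like and 48.9 ± 28.5 CPM in fibroblast-like nuclei. It was at 13.4 ± 5.56 CPM in T-like nuclei and at 19.1 CPM in the Olfm4-led cluster. The Gfra4-led cluster held 24.4% of all Nkd1 UMIs of a library on average, and 62.1% lay in the epithelium, the lowest such share of the 10 genes.

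Tcf7l2, the TCF factor that carries beta-catenin to DNA in this tissue, was highest in an enterocyte-like cluster. It was at 1893 ± 464 CPM in the Ly6m-led enterocyte-like cluster, above the next cluster in 6 of 6 libraries, and at 1393, 1361 and 1303 CPM in the Fer1l6-led goblet-like, Gfra4-led and Slc6a19-led enterocyte-like clusters. Its T-like level was 758 ± 212 CPM, close to the 722 CPM of the Olfm4-led cluster.

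Sox9, a factor of crypt and secretory cells, was at 134 ± 33.6 CPM in Paneth-like, 127 ± 28.7 CPM in Gfra4-led and 109 ± 51.4 CPM in tuft-like nuclei, with overlapping ranges, and at 26.6 CPM in T-like nuclei. Myc, a growth regulator, was at 51.6 ± 20.6 CPM in the Olfm4-led cluster and 19.1 CPM in T-like nuclei. Ascl2, the stem cell factor that controls Lgr5 cells, did not exceed 6.83 CPM in any class, so no order could be read for it at this depth. Summed RNA of Paneth markers, alpha-defensins among them, was highest in the first CON and SAP libraries in each class where it was summed. Such sums were not made for Paneth-like nuclei. The totals used for CPM include RNA of these markers, and its part in the Paneth-like levels was not tested.

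Likeness was measured as Pearson's r of log2(CPM + 1) over the 21 classes and clusters among 12781 genes, as a description: the classes share libraries and depth. Axin2 was most like Hs6st2 (r = 0.946), Smoc2 (0.927) and Ephb3 (0.921), and Znrf3 was most like Smarcc1 (0.946), Gnb1l (0.937) and Ephb2 (0.937). For Lgr5 the nearest named genes were Muc4 (0.897) and Hgfac (0.879) after LOC120093591 (0.921), and Hgfac (0.931), Ephb3 (0.889) and Muc4 (0.883) were nearest to Sox9. Myc was nearest to Gnb1l (0.915), Kcne3 (0.909) and Smoc2 (0.909), Rnf43 to Grhl2 (0.902), Hdac8 (0.898) and Limk2 (0.898), and Nkd1 to Fn1 (0.896), Dact1 (0.879) and Aldh1l2 (0.860). For Tcf7l2 they were LOC120100061 (0.935), Klf3 (0.908) and Arfgap3 (0.879), for Lgr4 Atp7b (0.875), Impa1 (0.864) and Stk3 (0.850), and for the sparse Ascl2 Itpa (0.721), Hexa (0.711) and LOC108352861 (0.697). Among the 10 genes themselves Znrf3 and Myc (0.872), Axin2 and Myc (0.871) and Rnf43 and Znrf3 (0.852) were most alike, whereas Tcf7l2 ran against Myc (-0.308). The r of Tcf7l2 with Ascl2 (-0.483) is not read, since no order over classes could be read for Ascl2.

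The comparison of SAP with CON asked whether the circuit was changed 24 h after the induction of pancreatitis. Over all epithelial nuclei no member passed the test (edgeR's quasi-likelihood test on sums per library, adjusted p under 0.05 over all 16922 genes and a log2 fold change of at least 0.5), and neither did any other gene: 0% of the genes were called, while 1027 were lower and 878 higher at an unadjusted p under 0.05. DESeq2 called 264 genes and none of the 10. Of the 10 genes 9 were lower in SAP and 1, Nkd1, higher, with a median log2 fold change of -0.28 over the 10 and of -0.0037 over all genes tested. Znrf3, Lgr5 and Lgr4 were lower without overlap between the groups, 3 of 10, where 12.5% of all genes were. Values in this and the following comparisons are TMM-scaled CPM (scaled by edgeR for differences in composition), listed in the order of replicates 1 to 3. Nothing in the labels says that the libraries are other than 1 per rat, and p-values measure the spread between these 6 rats.

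Znrf3 showed the largest difference of the 10. It was at 255, 270 and 192 CPM in CON and at 153, 68.0 and 141 CPM in SAP. Every SAP library was below every CON library. The log2 fold change was -0.99 (SE 0.33, unadjusted p = 0.0169, adjusted p = 0.397), and Znrf3 was the only member with an unadjusted p under 0.05 (6.07% of all genes were lower at that p). Over all nuclei it was also the only member lower without overlap, where 9.06% of 19187 genes were and 0% were called, at 251, 285 and 172 CPM against 155, 76.0 and 122 CPM (-1.01, adjusted p = 0.545).

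Lgr5 was at 90.6, 79.2 and 82.4 CPM in CON and at 72.1, 26.4 and 52.9 CPM in SAP, with no overlap, but SAP replicate 2 was far below the other SAP libraries. Its log2 fold change was -0.74 (SE 0.35, adjusted p = 0.465) and -0.42 without that library. Lgr4 was at 253, 234 and 247 CPM in CON and at 211, 225 and 186 CPM in SAP, a small but non-overlapping difference (log2 fold change -0.24, SE 0.18, adjusted p = 0.642).

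Rnf43 was at 977, 1041 and 743 CPM in CON and at 852, 622 and 545 CPM in SAP, and the groups overlapped (log2 fold change -0.45, SE 0.26, adjusted p = 0.543). Axin2 also overlapped, with 112, 50.4 and 59.3 CPM in CON against 62.3, 23.5 and 47.9 CPM in SAP. Its log2 fold change of -0.73 (SE 0.43, adjusted p = 0.544) rested in part on CON replicate 1: it was -0.29 without that library, and -0.42 without SAP replicate 2. The remaining genes differed by less than their spread, with log2 fold changes of 0.05 for Nkd1 (SE 0.52), -0.08 for Tcf7l2 (SE 0.26), -0.22 for Sox9 (SE 0.55), -0.33 for Myc (SE 0.45) and -0.06 for Ascl2 (SE 0.87).

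**Figure D2:**
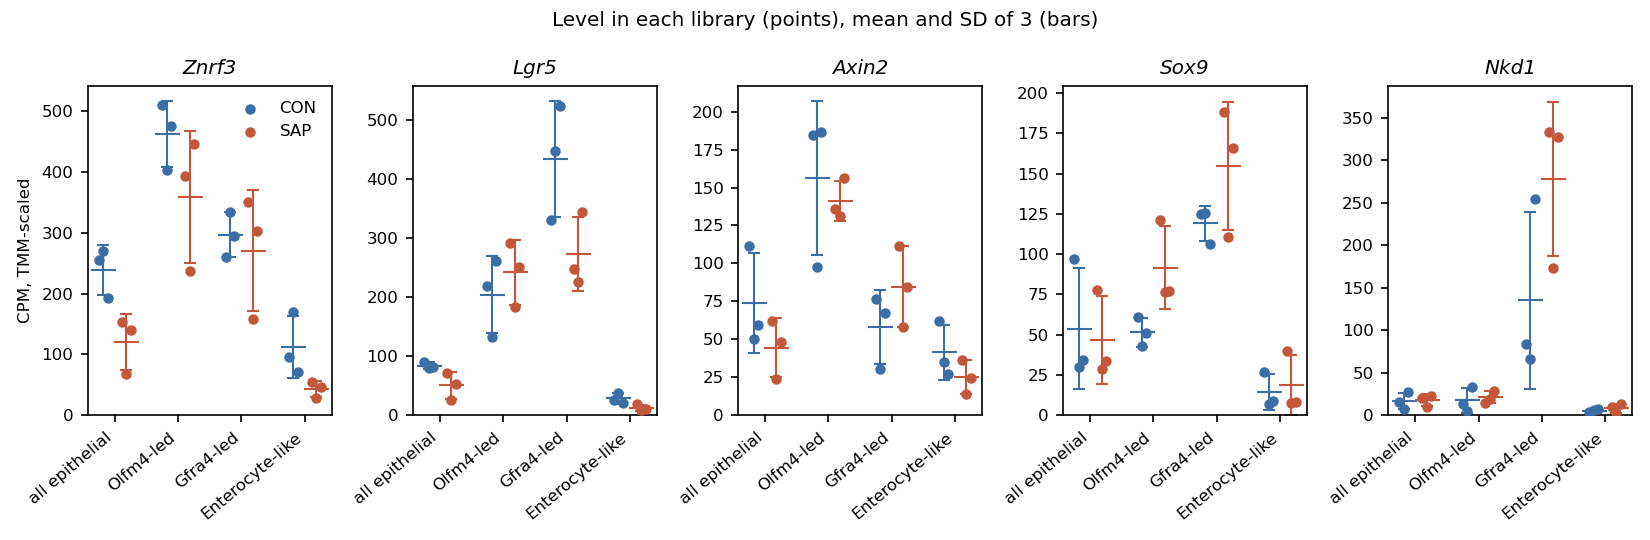
Level (TMM-scaled CPM, vertical axes from 0) of 5 of the genes in the 3 CON and 3 SAP libraries (points, with mean and SD), in all epithelial nuclei, the Olfm4-led and Gfra4-led clusters and enterocyte-like nuclei. Znrf3 was at 192 to 270 CPM in CON and 68.0 to 153 CPM in SAP over the epithelium, and Sox9 in the Olfm4-led cluster at 42.8 to 60.7 against 76.6 to 121 CPM.

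A similar separation was seen in the share of epithelial nuclei with at least 1 UMI of the gene after every nucleus was thinned to 1200 UMIs. For Znrf3 the CON libraries had 22.8%, 29.2% and 21.8% and the SAP libraries 13.9%, 6.73% and 16.4%, and for Lgr5 8.30%, 8.11% and 8.89% against 5.83%, 2.55% and 5.89%. Rnf43 was also separated here, at 56.6%, 68.1% and 54.1% against 48.6%, 44.1% and 44.3%. Each of these 3 had an exact two-sided permutation p = 0.1, the smallest that 3 libraries against 3 allow, and the unthinned shares were separated for the same 3 genes. Such shares were computed for the members only, so how many of all genes would be separated in this way is not known. Among T-like nuclei the CON libraries had thinned Lgr5 shares of 4.57%, 5.22% and 5.02%, the SAP libraries had 5.80%, 4.12% and 3.02%, and SAP replicate 2 had a lower share in its epithelium than in its T-like nuclei. This thinning was a random draw separate from that of the Lgr5 and Olfm4 counts above. The T-like Lgr5 share of CON replicate 2 was 7.23% in that draw and 5.22% in this one. The T-like share of Znrf3 was 20.4%, 30.5% and 19.0% against 10.9%, 10.3% and 16.5%, close to that of the epithelium, so the Znrf3 shares cannot be told from background. For Rnf43 the level in T-like nuclei was on average 0.990 times the epithelial one, so its shares are not read as free of background either.

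A sum over the epithelium also moves with its composition, and fewer nuclei of a type and less RNA per nucleus cannot be told apart in it. Stem/TA-like nuclei made up 34.5%, 38.0% and 22.5% of all nuclei in CON and 22.2%, 13.4% and 16.4% in SAP, and Gfra4-led nuclei 4.03%, 4.34% and 3.78% against 2.70%, 1.36% and 1.75%. Both were lower in every SAP library (exact two-sided permutation p = 0.1). A limit of 1% mitochondrial UMIs left 384 of 3189 nuclei in SAP replicate 1, 1908 of 5968 in SAP replicate 2 and 6176 to 7924 in each other library. Among these nuclei both shares overlapped (exact permutation p = 0.2), SAP replicate 1 then having 27.9% Stem/TA-like and 4.17% Gfra4-led nuclei against 23.6% and 3.96% in CON replicate 3. That overlap thus rests on a small part of SAP replicate 1. With the study's filters neither share passed limma's test over 21 shares (adjusted p = 0.703 for Stem/TA-like nuclei). As a share of epithelial nuclei the adjusted p was 0.143 for both, and with the replicate number as a block, an analysis chosen after seeing the data, it was 0.0418 for Stem/TA-like, Gfra4-led, Paneth-like and enterocyte-like nuclei.

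When every library was given the same mix of 9 epithelial classes, the Lgr5 difference in mean log2 CPM shrank from -0.83 to -0.42 and that of Axin2 from -0.73 to -0.44, whereas that of Znrf3 went from -1.04 to -0.84. At the fixed mix the groups stayed apart for Znrf3 (exact two-sided permutation p = 0.1) and overlapped for Lgr5 (p = 0.4) and Axin2 (p = 0.3). Fixed-mix levels were computed for the members only, so how many of all genes would be apart in this way is not known. Without SAP replicate 2 the fixed values were -0.16 for Lgr5, -0.17 for Axin2 and -0.53 for Znrf3, and Lgr5 was -0.25 without CON replicate 3 and Axin2 -0.29 without CON replicate 1. Rnf43 overlapped as measured (exact permutation p = 0.2) and was narrowly separated at the fixed mix (-0.32, exact permutation p = 0.1), with a lowest CON library of 804 CPM and a highest SAP library of 799.7 CPM. It overlapped again with the mix of the CON libraries or with coarser clusters (exact permutation p = 0.2 for both). Nkd1 moved the other way, from 0.17 to 0.72 (exact permutation p = 0.4), with a range of 0.33 without CON replicate 2 to 1.43 without CON replicate 3, also 0.41 without CON replicate 1 and 0.36 without SAP replicate 3. Sox9 went from -0.11 to 0.24 (exact permutation p = 0.6).

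**Figure D3:**
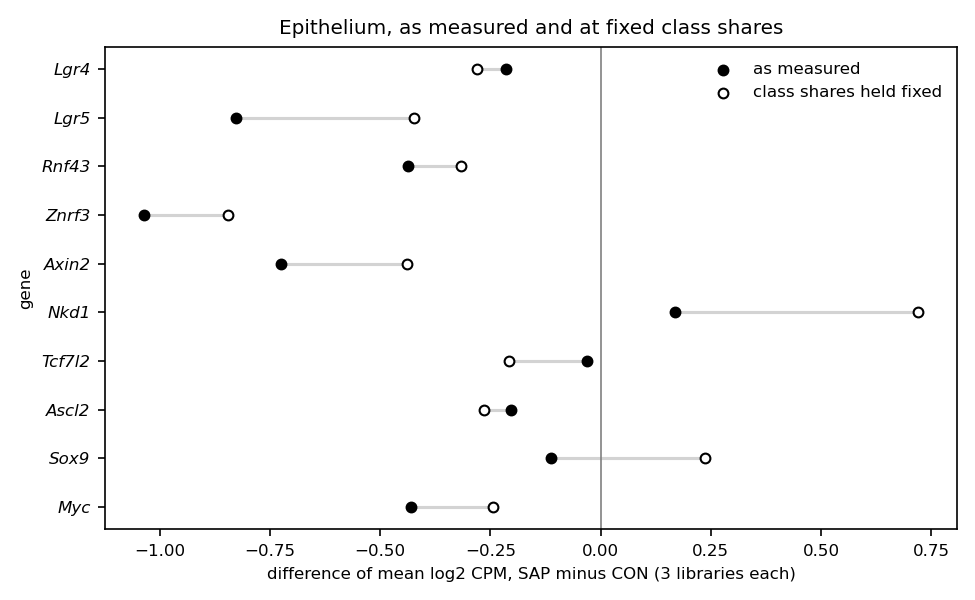
Difference of mean log2 CPM between SAP and CON over the epithelium (horizontal axis, 3 libraries each) as measured and with the class mix held fixed, for the 10 genes. Lgr5 moved from -0.83 to -0.42 and Znrf3 from -1.04 to -0.84.

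Within Stem/TA-like nuclei Lgr5 overlapped between the groups: it was at 136, 81.0 and 140 CPM in CON and at 157, 64.0 and 120 CPM in SAP (log2 fold change -0.07, SE 0.35, adjusted p = 0.961). Znrf3 alone was lower without overlap, at 398, 348 and 360 against 286, 130 and 295 CPM (log2 fold change -0.63, SE 0.31, adjusted p = 0.600). Of 13067 genes 9.3% were lower without overlap in this class and 0.00765% were called, none of them a member. Rnf43 (-0.19), Axin2 (-0.48), Tcf7l2 (-0.34) and Lgr4 (-0.10) were lower and Sox9 (0.48), Ascl2 (0.52), Nkd1 (0.14) and Myc (0.12) higher on the log2 scale, all with overlap. The TA markers, 8 of 8, were lower in these same nuclei (955 to 1009 CPM summed in CON, 199 to 931 in SAP), and the enterocyte markers, 11 of 11, were higher (681 to 1569 against 1252 to 3417 CPM). Their part in the differences above was not tested.

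The 2 Stem/TA-like clusters are given separately. In the Olfm4-led cluster Lgr5 was at 218, 132 and 261 CPM in CON and at 291, 183 and 251 CPM in SAP (log2 fold change 0.25, SE 0.27), and Rnf43 was at 1987, 1665 and 2000 against 2335, 1832 and 1716 CPM (0.06, SE 0.19). Znrf3, which was highest in this cluster, was lower in SAP with overlap (log2 fold change -0.36). Sox9 was higher in every SAP library, at 121, 76.6 and 77.3 CPM against 60.7, 42.8 and 51.2 CPM in CON. This was the only member higher without overlap in any class, where 6.52% of the 11344 genes of this cluster were (log2 fold change 0.82, SE 0.26, unadjusted p = 0.0114, adjusted p = 0.496). Called genes made up 0.00882% here. In the same cluster 6 of 7 Paneth markers and 7 of 8 tuft markers were higher in SAP by group mean, with sums that overlapped. So were 11 of 11 enterocyte, 7 of 8 T and 7 of 7 B cell markers, while 7 of 8 TA and 6 of 6 smooth muscle markers were lower, also with overlap. Tuft markers were higher in 6 of 8 also in T-like nuclei, so that shift was not particular to this cluster. The part of these markers in the Sox9 difference was not tested. In the mitotic cluster Znrf3 was at 284, 296 and 264 CPM in CON and at 204, 80.7 and 183 CPM in SAP (-0.85, SE 0.33, unadjusted p = 0.0326, adjusted p = 0.540), without overlap, where 9.08% of 11360 genes were lower in this way. Lgr5, low in both groups, differed by -0.78 with overlap (SE 0.53). The 8 TA markers were lower without overlap in this cluster (868.1 to 980.5 CPM summed in CON, 81.9 in SAP replicate 2 to 839.9 in SAP replicate 3). So were the 7 Stem markers (1602 to 2160 against 356.4 to 1582 CPM). The 11 enterocyte markers were higher by group mean (681.6 to 1697 against 1364 to 3919 CPM summed, with overlap). The part of these shifts in the Znrf3 and Lgr5 values was not tested. The difference between the 2 clusters was not tested.

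In the Gfra4-led cluster, where Lgr5 was highest, it was at 330, 448 and 523 CPM in CON and at 248, 226 and 344 CPM in SAP. The highest SAP library was above the lowest CON library, so the groups overlapped (log2 fold change -0.65, SE 0.25, unadjusted p = 0.0243, adjusted p = 0.437). Nkd1 had the opposite sign in the same nuclei, at 84.2, 66.2 and 255 CPM in CON and at 334, 173 and 328 CPM in SAP (log2 fold change 1.03, SE 0.54, adjusted p = 0.624). Leaving out CON replicate 3 took this to 1.86 and leaving out CON replicate 2 to 0.68. Tcf7l2 was at 1341, 1718 and 2006 against 1009, 1031 and 1465 CPM (log2 fold change -0.53, SE 0.25, adjusted p = 0.559). Rnf43 (0.32), Axin2 (0.48), Sox9 (0.36) and Myc (0.58) were higher and Znrf3 (-0.15) and Lgr4 (-0.07) lower, all with overlap. Of 7744 genes 0.0387% were called, 3 genes, and 42 were with the replicate number as a block, no member among them. With that block edgeR gave 1.17 for Nkd1 (adjusted p = 0.0922) and -0.67 for Lgr5 (adjusted p = 0.184). SAP libraries had 81 to 138 nuclei here and CON libraries 272 to 373, so the SAP values rest on fewer UMIs (29 of Lgr5 in the smallest library). By group mean 8 of 8 TA and 5 of 7 Paneth markers were lower in SAP here and 10 of 11 enterocyte markers higher, with sums that overlapped. Of the nuclei of this cluster 9.86% were among the 5% with the highest doublet score. The part of these markers and nuclei in the values above was not tested.

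**Figure D4:**
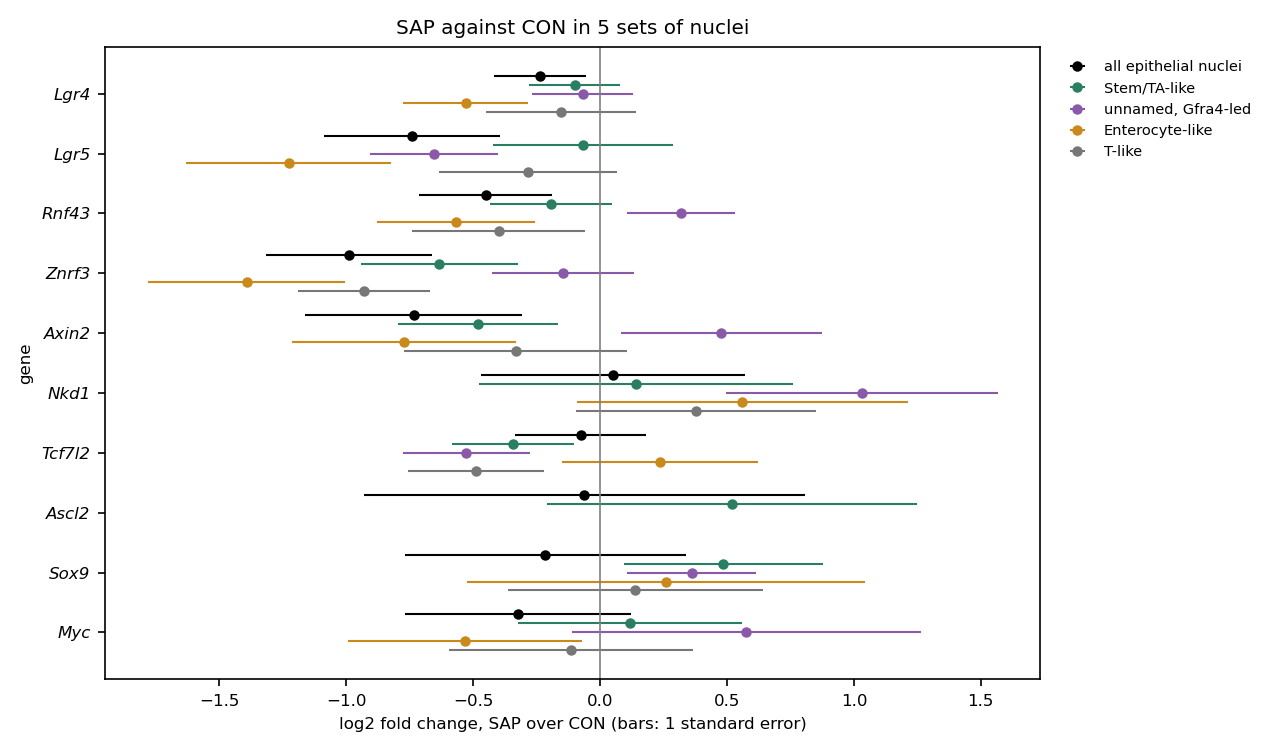
Log2 fold change of SAP over CON (horizontal axis, bars 1 SE) for each gene in all epithelial nuclei, Stem/TA-like, Gfra4-led, enterocyte-like and T-like nuclei, from edgeR fits over all genes of each. Znrf3 lay at -0.99, -0.63, -0.15, -1.39 and -0.93, and Lgr5 at -0.74, -0.07, -0.65 and -1.23 in the first 4.

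In enterocyte-like nuclei, which should hold little of the crypt genes, Znrf3 was at 95.4, 169 and 70.6 CPM in CON and at 53.8, 29.0 and 45.6 CPM in SAP (log2 fold change -1.39, SE 0.39, unadjusted p = 0.00632, adjusted p = 0.707). Lgr5 was at 26.2, 37.7 and 20.8 against 18.2, 8.67 and 10.3 CPM (-1.23, SE 0.40, unadjusted p = 0.0148, adjusted p = 0.707), and Lgr4 at 234, 232 and 203 against 172, 172 and 118 CPM (-0.53, SE 0.25, adjusted p = 0.713). All 3 were separated, in a class where 7.05% of 11585 genes were lower without overlap and 0.0259% were called. Summed TA markers were lower in the same nuclei without overlap, at 130 to 340 CPM in CON and 38.9 to 126 CPM in SAP, and their part was not tested. Each Lgr5 value of the enterocyte-like nuclei was below the mean of T-like nuclei, 48.5 CPM without TMM scaling.

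The difference between SAP and CON was itself compared between Stem/TA-like and enterocyte-like nuclei of the same rats. For Lgr5 the interaction was 1.10 on the log2 scale (SE 0.41, unadjusted p = 0.0223, adjusted p = 0.961 over 13556 genes), the fall from CON to SAP being smaller in Stem/TA-like nuclei, and 0.57 without CON replicate 2. The value was 0.64 for Znrf3 (SE 0.33), 0.49 for Lgr4 (SE 0.25) and -0.62 for Tcf7l2 (SE 0.30), which are not past the threshold either. No gene was called by edgeR in this fit (0%), 5.11% had an unadjusted p under 0.05, and the median over all genes was 0.067. It was therefore not shown that the difference depends on the class for any of the 9 members tested, Ascl2 being too low.

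Znrf3 values were lower in SAP in most classes, also outside the crypt, but edgeR with the settings above called it in none. Of 20 classes and clusters in which it could be tested it was lower in 19 and without overlap in 11, where 3.27% to 10.5% of all genes were in the same units (median 6.99%). Its log2 fold changes ran from -1.68 in the Slc6a19-led enterocyte-like cluster to 0.03 in Paneth-like nuclei with a median of -0.83. In SMC-like nuclei it was at 229, 304 and 216 CPM in CON and at 116, 98 and 137 CPM in SAP (-1.07, SE 0.27, adjusted p = 0.163, the lowest of any member). In T-like nuclei, given here as background, the values were 238, 305 and 194 against 128, 106 and 151 CPM (-0.93, SE 0.26, adjusted p = 0.716). The part of free RNA of other cells in these differences was not tested.

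**Figure D5:**
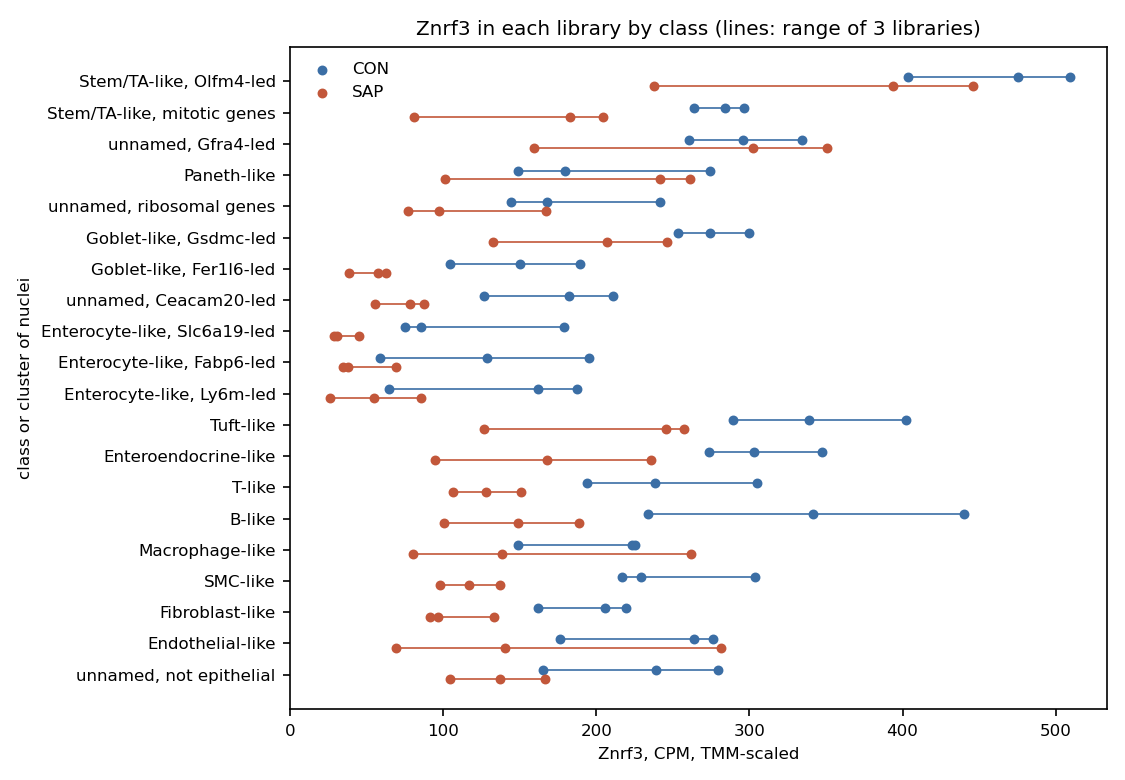
Znrf3 (TMM-scaled CPM, horizontal axis from 0) in each CON and SAP library (points) for the 20 classes and clusters tested (rows). SAP lay below CON in 11 rows, T-like nuclei (194 to 305 against 106 to 151 CPM) among them. The groups overlapped in all other rows, among them the Olfm4-led and Gfra4-led clusters and Paneth-like nuclei.

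In SMC-like nuclei 4 of 8 members tested were lower without overlap, Znrf3, Axin2 (-1.16), Rnf43 (-0.83) and Tcf7l2 (-0.75), against 10.4% of 8892 genes, and 0.0112% of genes were called. In T-like nuclei only Znrf3 was, against 6.8% of 12124 genes. The 8 TA markers were lower in SAP in both of these classes, at 512 to 724 against 134 to 478 CPM summed in T-like and 293 to 472 against 80.2 to 251 CPM in SMC-like nuclei, so UMIs of these genes differed between the groups also in nuclei of other types. In SMC-like nuclei the 7 Stem markers (1119 to 1510 against 538.7 to 897.7 CPM summed) and the 6 smooth muscle markers (7510 to 15120 against 1805 to 5274 CPM) were also lower without overlap. Summed neutrophil markers (0 to 13.3 against 97.4 to 1229 CPM, with Cxcr2 at 0 in all libraries) were higher there. The 8 enteroendocrine markers were higher as a sum (133.6 to 158.5 against 177.7 to 242.3 CPM), with 6 higher and 2 lower by group mean. The part of these markers in the member results was not tested. Over the 21 units Rnf43 was lower in 18 and without overlap in 5, Lgr4 in 18 of 20 and 2, Axin2 in 15 of 17 and 2, Tcf7l2 in 19 of 21 and 2, and Lgr5 in 14 of 17 and 2. Of all genes 3.27% to 10.5% (median 6.99%) were lower without overlap in these units, and the counts of 2 are near that share. Sox9 was higher in 11 of 14 and Nkd1 in 8 of 10. These units come from the same 6 libraries and are not independent of each other.

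The other genes of the pathway were counted by role in the epithelial fit, where no gene of any list was called. Of 8 Wnt ligands tested (19 listed) 5 were lower, with a median log2 fold change of -0.37. The Paneth cell ligand Wnt3 was at 86.8, 22.6 and 30.3 CPM in CON and at 27.6, 7.17 and 11.5 CPM in SAP (-1.63, unadjusted p = 0.0383), and Wnt11 (-1.96) and Wnt3a (1.73) were under 3 CPM in every library. Of the R-spondins Rspo1 and Rspo3 passed the filter on low counts, both at 3.06 CPM or less in each library. The 12 receptors tested split evenly, 6 lower and 6 higher, with Lrp5 at 0.62, Lrp6 at 0.27 and Ryk at -0.30. Among 7 inhibitors 3 were lower, and Notum, a secreted enzyme that inactivates Wnt ligands, was lower without overlap from at most 2.72 CPM (-1.82, unadjusted p = 0.0357).

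Downstream, 7 of 10 destruction complex genes were lower (median -0.12), with Tnks at -0.40, Apc at 0.37 and Gsk3b at -0.28. Of 10 beta-catenin cofactors 6 were lower (median -0.05), with Bcl9 at -0.53 (unadjusted p = 0.0367), Tle1 at -0.58 and Pygo2 at 0.39. Other crypt Wnt targets were lower in 10 of 12 (median -0.66), 4 of them without overlap, where 12.5% of all genes were lower in this way. The surface protein Prom1 was at 283, 227 and 184 CPM in CON and at 116, 67.9 and 106 CPM in SAP (-1.26, unadjusted p = 0.0019, adjusted p = 0.397), and the guidance receptor Ephb2 at 415, 333 and 312 against 152, 66.1 and 180 CPM (-1.41, adjusted p = 0.397).

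Crypt stem genes outside the Wnt lists were lower in 11 of 12 (median -0.80), 5 without overlap (12.5% of all genes), with Myb at -1.16, Hmga2 at -1.06 and Hopx at -1.03. Cell cycle genes were lower in 12 of 12 (median -1.29), 5 without overlap (12.5% of all genes), with Cenpf at -1.82, Kif11 at -1.39 and Aspm at -1.46. Genes of enterocyte maturity were higher in 11 of 11 (median 0.81), 4 without overlap, where 6.75% of all genes were higher in this way, with Apob at 1.83, Treh at 1.25 and Slc15a1 at 1.35. Within Stem/TA-like nuclei the medians were -0.19 for the other Wnt targets (7 of 11 lower), -0.45 for the stem genes (11 of 12 lower), -0.83 for the cell cycle (12 of 12 lower) and 1.13 for enterocyte maturity (10 of 10 higher). In the Olfm4-led cluster the median of the other Wnt targets was 0.13, with 4 of 11 lower. The enterocyte maturity genes are also the enterocyte markers that named clusters, and Myb, Hmga2, Cenpf, Kif11 and Aspm are among the Stem and TA markers, so the within-class values are not independent of the naming.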

How the data were processed

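Single nuclei of rat ileum were captured in droplets and sequenced, with 1 library per rat. The authors deposited UMI counts per gene and barcode, not normalized, and each library's own table. The submitters' processing notes name the build mRatBN7.2 and Seurat 4.3.0. Reads were processed by the authors with dnbc4tools, whose settings are not given in the sources used here.

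The study's filters were applied (at least 1200 UMIs, at least 500 genes, at most 5% mitochondrial UMIs). Nuclei were clustered with scanpy 1.11.5 (2000 variable genes with the 10 members left out, 30 components, Harmony over libraries, leidenalg 0.10.2 at resolution 0.8) and named only from marker lists. The rule on Defa24 and Lyz2 that kept the Gfra4-led cluster out of the Paneth-like class was set after the clusters were seen. Scrublet's automatic threshold marked at most 0.188% of a library and was not used. The 5% of nuclei with the highest doublet score were marked and kept, and left out in an alternative.

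UMIs were summed per library and class. Sums were tested with edgeR 4.0.16 (quasi-likelihood, TMM, filterByExpr) in R 4.3.3, with Benjamini-Hochberg adjustment over all genes of a fit. DESeq2 1.42.0 was an alternative, and limma 3.58.1 tested shares. Single values were tested by exact two-sided permutation. The scripts were tested on simulated counts. All 10 members are named, with the 3 genes most like each over classes (among genes of at least 20 CPM in a class) and at most 3 genes per pathway list, those with the lowest unadjusted p in the epithelial fit. The members and lists were chosen with earlier results of these data known, so no list supports a direction on its own. Same-numbered CON and SAP libraries deviated together over all nuclei (r = 0.602, 0.228 and 0.450) and in Stem/TA-like nuclei (0.539, 0.146 and 0.330), which meets the rule for pairs (every r over 0.1), but in the epithelium they had r = 0.586, 0.0845 and 0.332, and no source states that the rats were paired. The tables of 2 libraries also list barcodes under 1000 UMIs, which the filters removed.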

Additional observations from a re-analysis of the deposited data

How the results depend on the processing

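No member was called over all nuclei, over the epithelium or in the interaction under any alternative run. Within classes, where 0 were called, DESeq2 called 2, Znrf3 in the Ceacam20-led (adjusted p = 0.00929) and Slc6a19-led clusters (0.0247), where it called 209 and 61 genes in all and edgeR 1 and 3. The fit with no filter on low counts called 5, all Znrf3, among 176 genes in enterocyte-like and 288 in goblet-like nuclei and 222, 244 and 188 in the Ceacam20-, Slc6a19- and Fer1l6-led clusters. Leaving out 1 library gave 0 to 1 calls, the 1 being Znrf3 in the Fer1l6-led goblet-like cluster without CON replicate 3 (adjusted p = 0.0429), among 78 genes. DESeq2 called 3 genes of the pathway lists. With the replicate block and the epithelial denominator, chosen after seeing the data, 4 class shares passed. The block changed no other call of a member: over the epithelium it gave -1.05 for Znrf3, -0.85 for Lgr5 and -0.75 for Axin2, each with adjusted p = 0.367. Over all genes DESeq2 called 107 in Stem/TA-like nuclei and 67 in the Olfm4-led cluster against 1 each, 26 in the Gfra4-led cluster and 21 in enterocyte-like nuclei against 3 each, and 193 over all nuclei against 0. With no filter 278, 175 and 176 were called in the Olfm4-led, Gfra4-led and enterocyte-like fits. With at most 1% mitochondrial UMIs, which left 384 of 3189 nuclei in SAP replicate 1 and 1908 of 5968 in SAP replicate 2, Znrf3 over the epithelium was -0.73 and Lgr5 -0.52.

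Signs that turned, as log2 fold changes, were of values not past the test, and the cause was not tested. Over the epithelium they were Tcf7l2 without unnamed clusters (0.11) and Ascl2 with library totals (0.087). In Stem/TA-like nuclei they were Lgr5 at 1% mitochondrial UMIs (0.097), Lgr5, Rnf43 and Axin2 without Harmony (0.15, 0.081 and 0.011) and Myc with the replicate block (-0.015). In enterocyte-like nuclei Sox9 turned with depth class as covariate (-0.11), at 1% (-0.49) and without Harmony (-0.15), and Rnf43 in the Olfm4-led cluster with no filter (-0.082). With 1 library left out the ranges that crossed 0 were, over the epithelium, Nkd1 -0.31 to 0.60, Tcf7l2 -0.23 to 0.075, Ascl2 -1.13 to 0.79, Sox9 -0.77 to 0.54 and Myc -0.58 to 0.059. In Stem/TA-like nuclei they were Lgr5 -0.39 to 0.20, Nkd1 -0.29 to 0.84, Ascl2 -0.067 to 0.93 and Myc -0.17 to 0.48, and in enterocyte-like nuclei Nkd1 -0.052 to 1.03 and Sox9 -0.88 to 1.13. In the Olfm4-led cluster they were Rnf43 -0.10 to 0.13, Axin2 -0.39 to 0.0073 and Nkd1 -0.094 to 1.20, in the Gfra4-led cluster Znrf3 -0.36 to 0.11 and Myc -1.14 to 1.08, and in the interaction Sox9 -0.13 to 0.78. The block and the depth covariate were not run for the interaction, whose library terms absorb them, nor was leaving out unnamed clusters, which does not touch it. Other resolutions and the fit without Harmony were not run for numbered clusters, which they redraw. Depth limits Ascl2, with 228 UMIs in all.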
